A study of Mus musculus with 104 samples.

Results

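Joints between a fixed DNA break on mouse chromosome 7 and other broken DNA ends were compared between neural progenitor cells (NPC) and the embryonic stem cells (ESC) they were differentiated from, both under DMSO. The members were the 4 deposited junction tables that the labels assign to NPC or ESC, line 1 or line 2, chromosome 7 bait and DMSO, and each read name was counted 1 time per table. By the labels they cover 20 of the 104 experiments of the series (8 NPC and 12 ESC), and they hold 275075 of its 2018794 junctions. All cells, NPC and ESC alike, were Xrcc4-/- p53-/- on a C57BL/6/129SVE background, and the bait on chromosome 7 was the same in every table. NPC were derived from the ESC lines in N2B27 medium and kept in NBBG medium, and ESC were grown with 15% FBS. DMSO is the solvent control of the aphidicolin arm of the study, which asked whether replication stress gives recurrent break clusters in such cultures. The tables hold DNA joints and no RNA, so the labelled cell types could not be checked against marker genes, and the labels give neither the age of the cultures nor whether a line is 1 clone.

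The method was high-throughput genome-wide translocation sequencing (HTGTS), which amplifies outward from a primer beside the bait break and reads across the point where the bait end meets another end, the prey. Xrcc4 is the partner of DNA ligase IV in classical non-homologous end joining. Without it, breaks are joined by alternative end joining, which often trims the ends and uses short stretches of bases that both ends share. p53 loss lets cells with unrepaired breaks survive. In such libraries most joints lie close to the bait break, because the other end of the same break is the nearest partner.

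The bait reads ended most often at chr7:80451956 (mm9), and the primer lay to the right of it, with the outer end of the bait alignment most often at 80452046. A read thus runs leftward through the bait to the break and then into the prey. Reads of all 8 pools with this bait gave the sequence at the break, as the most frequent base at each position. The 23 bases at chr7:80451937-80451959, plus strand, were taken from 7 candidate stretches ending in GG. In the one taken, the boundary 3 bases before the last 3 lay closest to the break, 2 bases from it. They are shown because narrow sites described further on resemble them, and the capitals mark the last 3 bases, GGG:
chromosome 7 bait: tggtatgcagtggagcacatGGG
Reads that matched RefSeq promoter sequences of GRCm38 placed some gene starts in mm9 around the break. The nearest placed start was that of 4930429H19Rik, a long non-coding RNA gene, 3310 bases to the right of the break and placed by 2815 reads of the series. Chaserr, the long non-coding RNA gene next to Chd2, began 251325 bases to the right, and the nearest placed protein-coding start was that of Fam174b, 433237 bases to the right.

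The pools held 72763 and 95942 junctions in NPC lines 1 and 2, against 53859 and 52511 in ESC lines 1 and 2. Distinct positions and strands numbered 29833 and 36697 in NPC, against 14225 and 15094 in ESC. The number of junctions per position was thus lower in NPC, 2.44 and 2.61, than in ESC, 3.79 and 3.48. No read name was shared between any of the 4 pools. NPC experiments carried the letters of their labels (A to D in each line). The letters in the ESC tables did not match the labels, so ESC was used as 1 pool per line. In line 1 the table letters were A, B, C, D, F, G and I, against labels A to H. In line 2 they were A, B and D, against labels A to D, so not every labelled ESC experiment may be present. The labels do not say that experiments were separate cultures, so the p-values below measure the spread between pools, which may be technical. With 2 lines, the exact paired permutation test cannot go below p = 0.5 (two-sided), so no difference between the shares of this bait could pass a threshold by itself, and differences are set beside the spread of the pools instead.

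Joints spread further from the break in NPC than in ESC. Other chromosomes received 16.4% and 18.3% of junctions in NPC lines 1 and 2 (95% Clopper-Pearson intervals 16.1 to 16.6 and 18.1 to 18.6), against 6.85% and 8.34% in ESC lines 1 and 2 (6.64 to 7.06 and 8.11 to 8.58). The NPC pools did not overlap the ESC pools, and the 8 NPC experiments, between 13.9% and 19.02%, all lay above both ESC pools. The mean was 17.3% ± 1.37 in NPC and 7.60% ± 1.06 in ESC (SD, n = 2 pools each), a difference of 9.75 percentage points. Intervals here and below cover counting error only: the reads carry no molecular identifiers, so several can stem from 1 original joint.

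**Figure D1:**
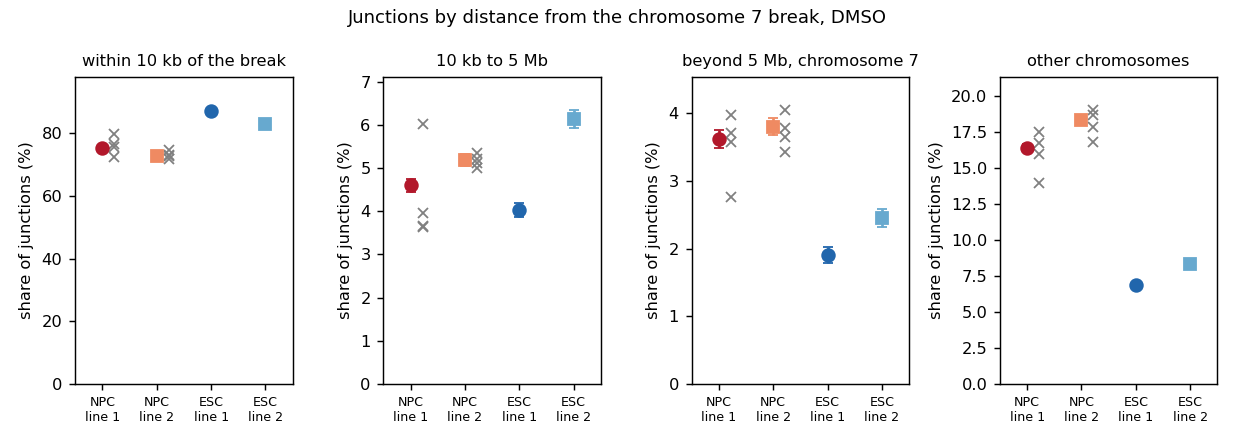
Share of junctions (%) in 4 distance zones for the NPC and ESC pools. Circles and squares are lines 1 and 2 with 95% Clopper-Pearson intervals, and grey crosses are the 4 lettered NPC experiments of each line; the NPC pools lie below the ESC pools within 10 kb and above them beyond 5 Mb and on other chromosomes.

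The gain on other chromosomes was matched by a smaller share beside the break. Within 10 kb of it lay 75.4% and 72.7% of junctions in NPC, against 87.2% and 83.1% in ESC. Between 10 kb and 5 Mb the groups overlapped, with 4.60% and 5.20% in NPC, against 4.03% and 6.14% in ESC. Beyond 5 Mb on chromosome 7 lay 3.62% and 3.81% in NPC, against 1.90% and 2.45% in ESC. Among all junctions farther than 5 Mb, chromosome 7 held a smaller part in NPC (18.1% and 17.2%) than in ESC (21.7% and 22.7%), and neither set of pools overlapped the other. Counting each position and strand 1 time raised the share on other chromosomes to 38.9% and 43.3% in NPC, against 24.01% and 24.2% in ESC. One sequencing run, going by the read names, held both cell types: there the share was 18.5% in NPC line 2 (18.2 to 18.8) and 8.81% in ESC line 1 (8.38 to 9.26). Over the 7 runs of ESC line 1, the share ranged from 3.54% to 11.3%.

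Each prey chromosome took part in that difference. Per 10000 junctions and per Mb of the span covered by deposited positions, the 18 autosomes other than chromosome 7 held a median of 0.675 and 0.766 junctions in NPC lines 1 and 2, against 0.272 and 0.342 in ESC lines 1 and 2. The NPC to ESC ratio ran from 1.97 to 2.69 over these autosomes in line 1 and from 1.79 to 2.96 in line 2. The X chromosome held fewer junctions per Mb than any autosome, 0.282 and 0.275 in NPC and 0.146 and 0.185 in ESC. Relative to the autosome median this was 0.418 and 0.359 in NPC, against 0.537 and 0.542 in ESC. Mitochondrial DNA received 7 and 13 junctions in NPC, against 13 and 16 in ESC, which is 0.0481% and 0.0613% of the junctions farther than 5 Mb in NPC and 0.276% and 0.282% in ESC.

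The side and direction of the prey tell which ends were joined. A prey on the far side of the break, read in the same direction as the bait, leaves a deletion. A prey on the far side in the opposite direction belongs to an inversion. On the primer side, a prey read toward the break closes a circle. A prey on the primer side read away from the break joins ends that both run toward the same chromosome end, so that the stretch is present in mirror orientation, which needs a second copy of that stretch. This last kind is called a mirror joint here.

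Within 10 kb of the break, mirror joints made up 24.2% and 23.8% of junctions in NPC lines 1 and 2, against 7.67% and 7.22% in ESC lines 1 and 2. These were 13290 and 16606 junctions in NPC and 3601 and 3148 in ESC. The groups did not overlap, and the 8 NPC experiments ranged from 19.3% to 25.8%. The mean was 24.02% ± 0.292 in NPC and 7.44% ± 0.317 in ESC (SD, n = 2 pools each), 3.23 times higher in NPC. Deletion-type joints were less frequent in NPC, 62.5% and 63.4% in NPC, against 80.3% and 79.3% in ESC. Inversion-type joints (9.97% and 9.35% in NPC, 8.16% and 8.96% in ESC) and circle-type joints (3.31% and 3.47% in NPC, 3.90% and 4.56% in ESC) differed by less than 2 percentage points in each line. In the run that held both cell types, mirror joints were 23.98% in NPC line 2 and 9.49% in ESC line 1. Over the 7 runs of ESC line 1 the share ran from 5.42% to 9.49%. Counting each position and strand 1 time narrowed the difference to 11.4 percentage points, with 31.9% and 31.3% in NPC, against 21.4% and 18.9% in ESC. An alternative chosen after seeing the data, with each position, strand and bait end counted 1 time, gave 27.6% and 27.4% in NPC and 11.1% and 9.72% in ESC.

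Mirror joints in NPC also reached far beyond 10 kb. Between 50 and 300 kb there were 603 and 1469 of them in NPC lines 1 and 2, against 42 and 59 in ESC lines 1 and 2. Per 10000 junctions this was 82.9 and 153 in NPC, against 7.80 and 11.2 in ESC, so the level was 12.4 times higher in NPC on the means of the pools. Of all junctions at that distance, mirror joints were 63.1% and 69.8% in NPC, against 18.4% and 17.4% in ESC. The share changed by less than 2 percentage points with each position and strand counted 1 time (63.8% and 70.3% in NPC, 19.4% and 19.4% in ESC). NPC experiments ran from 46.7% to 67.6% in line 1 and from 67.8% to 75.5% in line 2. Between 100 and 200 kb, 255 and 578 mirror joints in NPC stood against 9 and 17 in ESC. Between 10 and 20 kb the levels were close, with 563 and 492 in NPC and 406 and 478 in ESC, which per 10000 junctions is 77.4 and 51.3 in NPC and 75.4 and 91.0 in ESC. The excess in NPC thus lay within 10 kb and again beyond 20 kb.

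**Figure D2:**
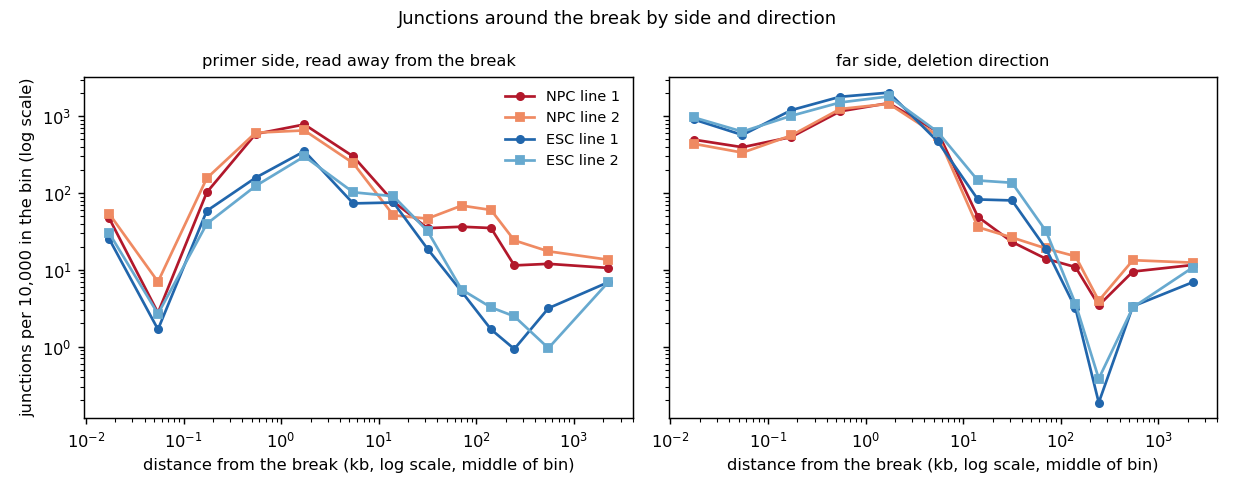
Junctions per 10000 in bins of distance from the break (both axes log scale) for mirror joints on the primer side (left) and deletion-type joints on the far side (right), 1 line per pool. NPC lies above ESC for mirror joints within 10 kb and past 50 kb, and below ESC for deletion-type joints at 20 to 50 kb.

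Deletion-type joints had another distance profile. Between 20 and 50 kb from the break there were 168 and 253 of them in NPC lines 1 and 2, against 432 and 716 in ESC lines 1 and 2. Per 10000 junctions this was 23.1 and 26.4 in NPC, against 80.2 and 136 in ESC, and the groups did not overlap. Between 100 and 300 kb the order was the other way, with 104 and 182 in NPC and 18 and 21 in ESC, or 14.3 and 18.97 per 10000 in NPC against 3.34 and 3.999 in ESC. Within 10 kb, deletion-type joints lay at a median distance of 840 and 818 bases in NPC, against 580 and 569 bases in ESC. Circle-type joints at 30 to 100 bases from the break numbered 144 and 265 in NPC and 524 and 530 in ESC. This range covers part of the bait stretch and runs just past its outer end.

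Beyond 5 Mb the side still mattered in NPC. Of the chromosome 7 junctions there, 68.1% and 64.9% lay on the primer side in NPC (intervals 66.3 to 69.9 and 63.3 to 66.5), against 49.3% and 54.5% in ESC (46.2 to 52.4 and 51.7 to 57.2). Between 20 and 40 Mb from the break the primer side held 3.78 and 4.02 junctions per 10000 and per Mb in NPC, against 1.49 and 2.24 in ESC. The far side at the same distance held 1.32 and 1.59 in NPC, against 1.33 and 1.33 in ESC. Of all junctions the primer side at 20 to 40 Mb was thus higher in both NPC pools than in both ESC pools, and the far side was close. Per 10000 junctions farther than 5 Mb the picture was the other way round: the primer side held 18.9 and 18.2 per Mb in NPC, against 16.97 and 20.7 in ESC, which overlap, and the far side held 6.597 and 7.19 in NPC, against 15.2 and 12.3 in ESC. At other distances the far side was not always close, per 10000 of all junctions and per Mb. At 5 to 10 Mb it held 4.21 and 5.07 in NPC, against 2.45 and 4.15 in ESC. At 10 to 20 Mb it held 1.73 and 1.99 in NPC, against 1.73 and 2.48 in ESC. At 40 to 80 Mb it held 1.27 and 1.41 in NPC, against 1.01 and 0.990 in ESC.

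The pattern around the break was also measured at the other 2 baits of the series under DMSO, on chromosomes 12 and 15, where the primer lies to the left of the break and directions were mirrored. These measures had been chosen after the chromosome 7 values were seen, and the labels do not say whether lines 1 and 2 are the same lines at every bait. Mirror joints within 10 kb were higher in NPC than in ESC in 6 of 6 line and bait pairs, with a mean of 20.7% ± 3.61 in NPC and 10.1% ± 2.08 in ESC (SD, n = 6 pools each). The difference was 10.6 percentage points ± 5.31 (exact paired permutation test, two-sided, p = 0.0312, the smallest that 6 pairs allow; 0.0312 adjusted over 10 measures). In the 4 pairs with other baits alone it ran from 4.53 to 11.4 points and was positive in 4 of 4 (exact test, p = 0.125, the smallest that 4 pairs allow). Mirror joints at 50 to 300 kb were likewise higher in 6 of 6 pairs (exact test, p = 0.0312; 0.125 in the 4 pairs with other baits). At bait 12 line 2 the levels per 10000 junctions were close, 31.4 in NPC and 25.5 in ESC. Deletion-type joints at 20 to 50 kb were lower in NPC in 6 of 6 pairs (exact test, p = 0.0312; 0.125 in the 4 pairs with other baits), from 27.8 in NPC against 202 per 10000 in ESC at bait 12 line 2, to 29.8 in NPC against 36.8 in ESC at bait 15 line 2.

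**Figure D3:**
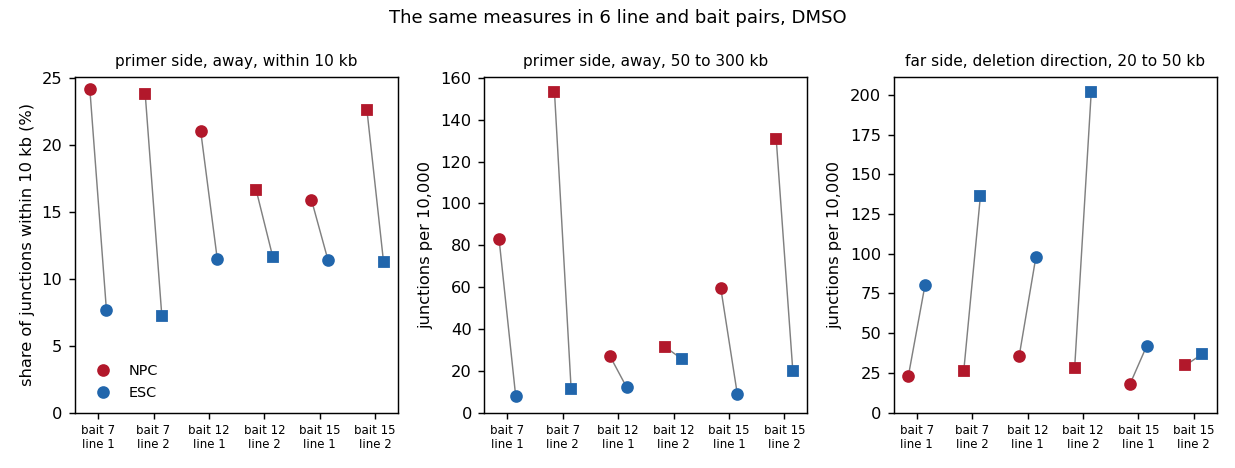
Mirror joints within 10 kb (%), mirror joints at 50 to 300 kb (per 10000 junctions) and deletion-type joints at 20 to 50 kb (per 10000 junctions) in 6 line and bait pairs under DMSO, NPC left and ESC right in each pair, circles line 1 and squares line 2. NPC lies above ESC in every pair of the first 2 panels and below it in every pair of the third.

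At the joint itself, NPC more often had bases that could belong to either end, and ESC more often had inserted bases. At least 1 shared base was present in 71.1% and 68.9% of junctions in NPC lines 1 and 2, against 64.3% and 61.1% in ESC lines 1 and 2. Inserted bases were present in 19.9% and 22.4% in NPC, against 26.4% and 29.5% in ESC. Direct joints with neither were close, 8.96% and 8.71% in NPC, against 9.33% and 9.42% in ESC. Most of the gain in shared bases was at 2 to 3 bases, which 40.3% and 39.1% of junctions had in NPC, against 35.3% and 32.7% in ESC. The 8 NPC experiments ran from 68.2% to 71.3% for shared bases and from 19.6% to 22.9% for inserted bases, apart from the ESC pools but not from every ESC run. Over the 7 runs of ESC line 1, shared bases ranged from 59.3% to 68.8% and inserted bases from 22.5% to 31.1%, so the ESC run nearest to NPC lay inside the NPC ranges.

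In percentage points the contrast was larger away from the break. Of junctions farther than 5 Mb, 79.1% and 78.4% had a shared base in NPC, against 68.0% and 63.5% in ESC. Insertions of 5 or more bases were found in 5.92% and 6.504% in NPC, against 13.9% and 16.2% in ESC. Shared stretches of 8 or more bases ran against the trend, with 2.93% and 2.48% in NPC and 6.62% and 5.13% in ESC. The bait end was trimmed further in NPC: 28.5% and 33.7% of bait ends had lost 20 or more bases in NPC, against 17.95% and 18.8% in ESC, and the median loss was 10 and 12 bases in NPC and 6 and 6 in ESC. The matched prey was 57 and 56 bases long at the median in NPC and 60 and 66 in ESC, and its part in these values was not tested. In the run that held both cell types, inserted bases were present in 22.7% of junctions in NPC line 2 and 29.2% in ESC line 1. Over the 6 line and bait pairs under DMSO, shared bases were higher in NPC by 7.22 percentage points ± 2.04 and inserted bases lower by a mean difference of -6.98 ± 1.36, each with the same sign in 6 of 6 pairs (exact test, p = 0.0312 for each). Longer bait end loss, fewer insertions of 5 or more bases and fewer shared stretches of 8 or more bases also had the same sign in 6 of 6 pairs (exact test, p = 0.0312 for each). The 6 pairs include the 2 chromosome 7 pairs on which these 5 measures were chosen. In the 4 pairs with other baits alone each had the same sign in 4 of 4 (exact test, p = 0.125, the smallest possible), and insertions of 5 or more bases differed by as little as -0.804 points, at bait 12 line 2.

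**Figure D4:**
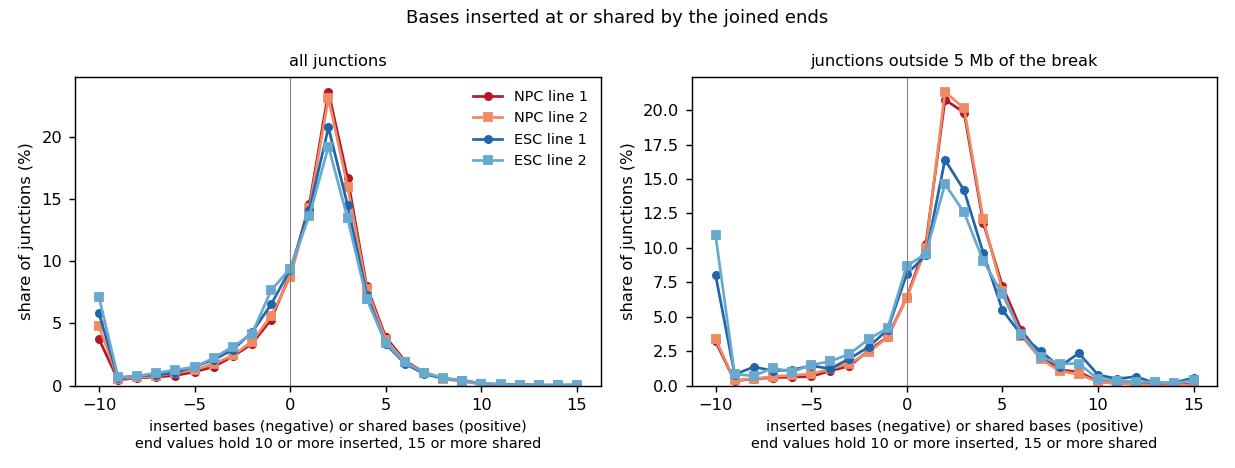
Share of junctions (%) by number of inserted bases (negative) or shared bases (positive) for all junctions (left) and those farther than 5 Mb from the break (right), 1 line per pool. NPC lies above ESC at 2 to 4 shared bases and below it at 10 or more inserted bases.

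Regions that joined the bait at different rates were searched in 500 kb bins outside 5 Mb of the break. The quasi-likelihood test of edgeR, fitted to all 24 pools of the series with the line as a block, tested 2469 bins. It called 5 bins higher in NPC (0.203%) and 1 higher in ESC (0.0405%) at an adjusted p below 0.05, and 228 bins had an unadjusted p below 0.05. The pools compared held 14403 and 20987 junctions in the bins in NPC, against 4669 and 5577 in ESC, so few junctions fell in each bin. In simulated counts the test recovered 8% of 4-fold increases, 0% of 2-fold increases and 0% of 4-fold and 2-fold decreases. Differences of these sizes could thus go undetected at this depth, decreases more so, and the split of 5 higher against 1 lower is not a measure of direction. The median log2 fold change of all bins was 0.68, against 0.05 with no TMM scaling, and fold changes are best read against it. With no TMM scaling 4 bins were called higher in NPC and 5 higher in ESC, against 5 and 1 with it.

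All 5 bins higher in NPC owed most of their junctions to a single narrow site. The bin at chr2:161500001-162000000 held 64 and 107 junctions in NPC lines 1 and 2, against 0 and 0 in ESC lines 1 and 2 (edgeR adjusted p = 1.64e-07). With 3 junctions set for both ESC pools together, it was at least 16.5-fold higher in NPC. That fold is per junction in the bins with no TMM scaling, unlike the TMM-scaled log2 fold changes that follow. The bin at chr1:109000001-109500000 held 64 and 57 in NPC, against 2 and 0 in ESC (log2 fold change 4.80 ± 0.88 SE, adjusted p = 7.40e-05). The bin at chr11:113000001-113500000 held 57 and 99 in NPC, against 4 and 0 in ESC (4.11 ± 0.80, adjusted p = 2.58e-04). A bin on chromosome 18 held 59 and 69 in NPC, against 2 and 2 in ESC (3.86 ± 0.79, adjusted p = 6.88e-04). The bin at chr14:70500001-71000000 held 42 and 35 in NPC, against 2 and 2 in ESC (3.13 ± 0.80, adjusted p = 0.0377). One 1 kb window in each of these bins held 60.3% to 78.5% of its NPC junctions. Without the line 2 pools, the chromosome 2 bin alone was called (edgeR adjusted p = 0.0277), and p was 0.341 for chromosome 1, 0.813 for chromosome 11, 0.540 for chromosome 18 and 0.813 for chromosome 14. Without the line 1 pools, the bins on chromosomes 18 and 14 were not called (edgeR adjusted p = 0.120 and 0.663), while those on chromosomes 2, 1 and 11 were. The chromosome 14 bin also missed the threshold without experiment D of NPC line 1 (0.0620), without experiment C of NPC line 2 (0.0657), with no TMM scaling (0.265), with each position and strand counted 1 time (0.0999) and with DESeq2 (0.0761). With the bins that hold a narrow site left out, edgeR called 0 of 2450 bins, and 215 had an unadjusted p below 0.05. Every bin called in either direction held such a site, and the sites were picked from these same pools after the data were seen. The count of 0 was thus largely fixed in advance, and nothing is read from it.

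The one bin higher in ESC, at chr3:46000001-46500000, held 7 and 0 junctions in NPC, against 12 and 21 in ESC (log2 fold change -3.35 ± 0.73, adjusted p = 0.00202). All of its NPC and ESC junctions lay in 1 kb, at 11 positions and strands, with 21 junctions at a single one. Its edgeR adjusted p was 0.344 with each position and strand counted 1 time and 0.813 without the line 2 pools. The next bins toward ESC did not pass the test. The bin at chr7:106500001-107000000, where the starts of Slco2b1, an organic anion transporter gene, and Neu3, a sialidase gene, were placed, held 15 and 32 junctions in NPC, against 38 and 51 in ESC (log2 fold change -2.06 ± 0.60, adjusted p = 0.167). The bin at chr7:35500001-36000000 held 12 and 11 in NPC, against 17 and 26 in ESC (-1.98 ± 0.62, adjusted p = 0.393). These 2 bins lie on the bait chromosome, and both passed in edgeR with the 4 pools alone (adjusted p = 1.35e-04 and 0.01399), with no TMM scaling (0.00129 and 0.00472) and with DESeq2 (0.00179 for each). Bins at chr13:45000001-45500000 (2 and 1 in NPC, 6 and 6 in ESC) and chr5:38000001-38500000 (0 and 1 in NPC, 6 and 2 in ESC) were next, with adjusted p = 0.427 and 0.458.

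Narrow sites were then listed as 1 kb windows outside 5 Mb with at least 20 junctions over the 4 pools, a rule set after the data were seen; 16 of the 39702 windows with a junction qualified. Their sequences, read from the junctions of the 8 pools with this bait, were compared with the bait sequence above. Over its first 16 bases, whole or with 1 base left out, 8 sites shared 13 or 14 letters with the bait and the other 8 shared 8 to 11. Sites of the first kind, with all 20 bases and the 3 after them, are shown for chromosomes 2, 1 and 11. Capitals mark letters that differ from the bait, counted from its first base; the chromosome 11 site lacks 1 base of the bait (base 11) and is aligned without it:
chromosome 2 site, chr2:161808229-161808251, minus strand: GgAtatgcagtggagcaTatggg
chromosome 1 site, chr1:109162744-109162766, minus strand: GTTtatgcagtAgagcacatggg
chromosome 11 site, chr11:113036229-113036250, minus strand: tggtatAcagggaAcacatTgg
At 2 weaker sites the bases that follow were read too rarely, and 15 bases could be compared, with 1 bait base left out (base 6 for chromosome 7 and base 8 for chromosome 4):
chromosome 7 site, chr7:17329786-17329800, plus strand: tggtagcagtgTagc
chromosome 4 site, chr4:5697242-5697256, plus strand: Aggtatgagtggagc
The chromosome 2 site differed from the bait by T1G, G3A and C18T, and the chromosome 1 site by T1G, G2T, G3T and G12A. The remaining 3 of the 8 sites, on chromosomes 14, 18 and X, shared 13 letters over 15 compared. The labels name no nuclease or guide, so the letters are given as a description.

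The 8 sites that resemble the bait reached the minimum of 20 junctions through the NPC pools, which also held more junctions in all, so their order and the size of the difference in these 4 pools are in large part set by that minimum and are given as a description. Together they held 233 and 291 junctions in NPC lines 1 and 2, against 7 and 5 in ESC lines 1 and 2. Of the junctions farther than 5 Mb this was 1.60% and 1.37% in NPC (intervals 1.40 to 1.82 and 1.22 to 1.54), against 0.149% and 0.0884% in ESC (0.0599 to 0.307 and 0.0287 to 0.206). Per 10000 such junctions, the summed level was 147 in NPC and 11.6 in ESC, 12.6 times higher in NPC in the data that selected the sites, and the 8 NPC experiments ranged from 121 to 209. In 7 of the 8 sites both NPC pools lay above both ESC pools. The share among all tested bins was 23.0%, but those bins passed no such minimum, and nothing is read from the count. The exception was the X site, with 13 and 6 junctions in NPC and 0 and 2 in ESC. The chromosome 2 site held 43 and 73 junctions in NPC, at 32 and 48 distinct positions and strands, against 0 and 0 in ESC, at least 11.2-fold higher in NPC with the same allowance of 3 junctions. The chromosome 1 site held 51 and 44 in NPC, against 2 and 0 in ESC. The chromosome 11 site held 35 and 59 in NPC, against 2 and 0 in ESC. At the chromosome 4 site 10 and 14 junctions in NPC stood against 0 and 0 in ESC, and at the chromosome 7 site 10 and 21 in NPC against 0 and 0 in ESC.

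**Figure D5:**
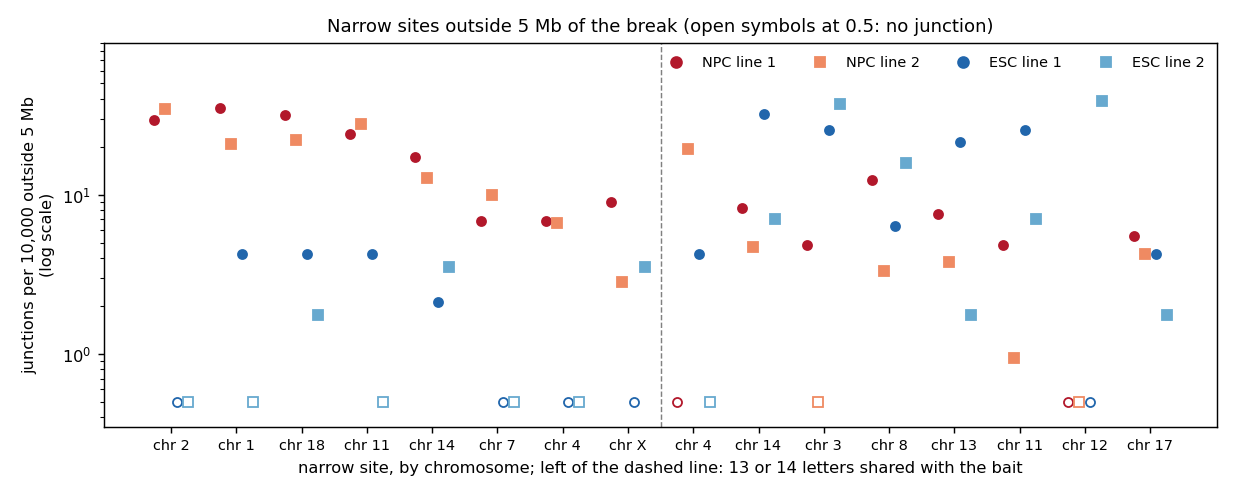
Junctions per 10000 farther than 5 Mb from the break (log scale) at the 16 narrow sites, 1 symbol per pool, with open symbols at 0.5 for no junction. Left of the dashed line are the 8 sites that share 13 or 14 letters with the bait, where NPC lies above ESC in all but the X site. Right of it the order varies, and the chromosome 12 site there is the window of the chromosome 12 bait break.

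The counts of the pools treated with aphidicolin and made with the same bait had no part in the minimum of 20 junctions, although their reads helped to give the sequences. They held 250 and 130 junctions in NPC lines 1 and 2 and 5 and 3 in ESC lines 1 and 2. Per 10000 junctions farther than 5 Mb the sum was 71.4 in NPC and 5.46 in ESC, 13.1 times higher in NPC. The 8 sites held 0 junctions in the 8 NPC pools and 2 in the 8 ESC pools with the baits on chromosomes 12 and 15. Junctions fell on both strands at each of the 8 sites, with 40.6% to 50.9% on the plus strand at 7 of them and fewer at the chromosome 18 site.

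Gene starts placed by reads locate these sites only coarsely. The chromosome 11 site lay 475 kb to the left of the placed start of Slc39a11, a zinc transporter gene, and the next placed start to the left was that of Map2k6. Between these 2 placed starts RefSeq lists Kcnj16, Kcnj2, Gm11677, Sox9 and Sstr2, and on which side of the site each lies was not determined. Sox9 encodes a transcription factor of cartilage, testis and neural stem cells. The chromosome 7 site lay between the placed starts of Tmem160, 292 kb to the left, and Prkd2, a protein kinase gene 98.5 kb to the right. The chromosome 1 site lay 327 kb to the right of the placed start of Serpinb12, a serine protease inhibitor gene. The next placed start to its right was that of Marco, 13239 kb away. RefSeq lists 33 genes between these placed starts, other Serpinb genes among them, and on which side of the site each lies was not determined.

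The other 8 narrow sites together held 43.3 and 36.3 junctions per 10000 farther than 5 Mb in NPC lines 1 and 2, against 119 and 109.7 in ESC lines 1 and 2. They passed the same minimum of 20 junctions in the same pools, some of them mainly through ESC. The size of this difference is thus in part set by that minimum and is given as a description. Among these 8, chr12:13000001-13001000 is the window that holds the chromosome 12 bait break. It held 0 and 0 junctions in NPC, against 0 and 22 in ESC, or 38.9 per 10000 in ESC line 2 alone. In 2 of the 8 both ESC pools lay above both NPC pools. The share among all tested bins was 15.9%, but those bins passed no minimum of 20 junctions, and nothing is read from the count. A site at chr4:155610001-155611000, 20.6 kb from the placed start of Perm1, held 0 and 41 junctions in NPC, against 2 and 0 in ESC, all on the minus strand. Of the 41 junctions, 28 came from experiment C of NPC line 2 and 10 from experiment A. A site at chr14:28341001-28342000, between the placed starts of Arhgef3 and Erc2, held 12 and 10 in NPC and 15 and 4 in ESC. A site at chr13:24818001-24819000, between the placed starts of the histone gene H3c2 and of Gpld1, held 11 and 8 in NPC and 10 and 1 in ESC. A site at chr8:42513001-42514000 held 18 and 7 in NPC and 3 and 9 in ESC, 25 of the 37 at a single position. Of the other 8 sites, 0 had both NPC pools above both ESC pools per junction farther than 5 Mb. Among all tested bins the share was 23.0%, and nothing is read from that count either.

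Few junctions lay in promoter windows in either cell type, and the share of the genome that these windows cover was not computed. RefSeq promoter windows, 250 bases before to 50 after a gene start, held 76 and 126 junctions farther than 5 Mb in NPC lines 1 and 2, against 22 and 30 in ESC lines 1 and 2. Of the prey reads of at least 30 bases this was 0.540% and 0.615% in NPC, against 0.489% and 0.552% in ESC, and the groups overlapped. On the other chromosomes alone the mean share was 0.540% in NPC and 0.470% in ESC (n = 2 pools each), and there the groups did not overlap. The 221 genes hit were mostly hit a single time (196 of 221), and the largest total was 6 junctions, at Gm39226 on chromosome 8 (0 and 2 in NPC, 0 and 4 in ESC). No gene's promoter held more than those 6.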

How the data were processed

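HTGTS libraries of NPC and ESC with a bait break on chromosome 7 were analysed under DMSO. The deposited tables list 1 junction read per row, with junction position, strand and read name; reads were aligned to mm9 with Bowtie2, per the submitters' processing notes, and the junction caller is not given in the sources used here. Counts of junctions per bin are not in the deposited tables: each read name in them was counted 1 time per table, and 0 deposited per-sample columns were left unused. Pools of 52511 to 95942 junctions were compared, each line of each cell type being 1 pool, because the experiment letters in the ESC tables did not match the labels.

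The members, measures and lists were chosen with earlier results of these data known. Shares were compared with exact paired permutation tests over lines and given 95% Clopper-Pearson intervals. Counts in 500 kb bins outside 5 Mb of the break were tested with edgeR 4.0.16 (R 4.3.3; TMM, filterByExpr minimum count 5, quasi-likelihood test, Benjamini-Hochberg threshold 0.05) on 24 pools with 12 conditions and the line within bait as a block; DESeq2 1.42.0 was an alternative. The test was checked on simulated data, where it recovered 8% of 4-fold increases among 2469 bins. The lines carry the same number in NPC and ESC because NPC were derived from them; the deviations of same-numbered pools correlated at -0.00145. Named bins were those passing the test with the same sign in both lines, up to 20 higher and 10 lower, and the first 5 in a direction with fewer than 5. The site sequences are the most frequent base at each position in reads, and whole matches were sought before GG. Promoter sequences are from RefSeq (GRCm38.p6) and were matched to reads with bwa 0.7.19 (at least 30 bases, 95% identity, mapping quality 20); no GRCm38 coordinate is used. This placed 1734 gene starts in mm9. The planned tests of long genes and of gene lists were not run, because no mm9 annotation was used here and 8 of 118 listed genes could be placed. Instead of 2 kb around starts, promoter windows were used.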

Additional observations from a re-analysis of the deposited data

Results flagged for a closer look

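Within groups of 4 NPC experiments, 40 groups of values were screened for a value far from the rest, a rule that chance meets in about 1 group in 20. In NPC line 2, experiment D had inserted bases in 20.5% of junctions, against 22.5% to 22.9% in the other 3 experiments. In NPC line 1, experiment A had inserted bases in 16.02% of junctions farther than 5 Mb, against 14.02% to 14.2% in the others. In NPC line 1, experiment C had 6.02% of junctions between 10 kb and 5 Mb of the break, against 3.63% to 3.95% in the others. Without a test of the difference, the lines moved in opposite directions in 2 measures: the share between 10 kb and 5 Mb, NPC minus ESC, was 0.577 percentage points in line 1 and -0.944 in line 2, and the share of mirror joints among junctions at 300 kb to 5 Mb was -1.46 points in line 1 and 11.9 in line 2.

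Another signal lay at the break of the chromosome 12 bait, a region left out of the bins but counted among the other 8 narrow sites. NPC line 1 had 1 junction within 1 kb of it and NPC line 2 had 0, against 0 in ESC line 1 and 24 in ESC line 2. The 24 junctions lay at 19 distinct positions and strands in 2 sequencing runs, 19 of them in a single run. The aphidicolin pool of ESC line 2 with the chromosome 7 bait had 19.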

How the results depend on the processing

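edgeR called 6 bins. It called 10 with 1 Mb bins (4 higher and 6 lower in NPC), 7 with no replicate block, which called the same 6 bins and 1 more, and 0 of 2450 with narrow-site bins left out, where 215 had an unadjusted p below 0.05. Since all 6 called bins hold a narrow site, that 0 was largely fixed in advance. Leaving out 1 line or 1 NPC experiment gave 1 to 6 calls. DESeq2 called 8, with no adjusted p for 2249 bins. The share of junctions between 10 kb and 5 Mb, -0.183 points in the mean of both lines, reversed without line 2 (0.577) and was -0.944 without line 1. Counts within 1.5 times of the 6 could still hide other bins: with no TMM 4 were higher and 5 lower in NPC, DESeq2 gave 4 and 4 and shared 0 of the lower ones, 250 kb bins gave 5 and 0, and counting positions 1 time gave 4 and 1 and lost the chromosome 3 bin. For the named bins, 14 calls were lost and 11 gained over all settings; the cause was not tested. The other shares kept their direction. The replicate block changed no other call. Long-gene results, DESeq2 on them and windows of 5 kb around starts were not run. Depth limits the bins to large differences, since ESC held 4669 and 5577 junctions in them.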
